A study of Mus musculus with 1 sample.

Results

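The genes described here are the 6 subunits of the MCM2-7 replication helicase (Mcm2, Mcm3, Mcm4, Mcm5, Mcm6 and Mcm7) and Pcna, the sliding clamp of DNA replication. They were chosen by name, with no measured value in the rule, though earlier results of these data were known. Their reads were those whose Ensembl gene identifier carries one of these symbols in the GENCODE vM21 annotation. A read counted as a transcript when it had at least 7 sequencing passes. The 7 genes had 3435 transcripts, out of 701976 transcripts of 12816 nuclear genes, and all 7 passed the minimum of 10 transcripts that was set for a gene tail length, as did 7146 nuclear genes in all.

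The poly(A) tails were measured by PAIso-seq, in which full-length cDNA that still holds the tail is read in circles on the PacBio platform. The cells were wild-type mouse embryonic stem cells (ESCs) of the ICR strain after 24 h of differentiation into epiblast-like cells (EpiLCs), which are on the way from naïve to formative pluripotency. They grew on Matrigel in N2B27 medium with activin A at 20 ng/ml, bFGF at 12 ng/ml and knockout serum replacement (KSR) at 1%. There was 1 group with 1 sample, which holds 2 replicates told apart by barcode, and no other genotype or time was analysed here. The labels do not say which barcode is which replicate, nor whether the replicates came from separate cultures, so the spread between them may be technical.

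The MCM2-7 proteins form a ring around DNA. They are loaded as an inactive pair of rings at replication origins and, once joined by Cdc45 and the GINS proteins, they unwind DNA ahead of the fork. PCNA is a ring of another kind that slides along the DNA behind the helicase and holds the polymerases and many repair and ligation factors to it. The poly(A) tail at the 3′ end of an mRNA is bound by poly(A)-binding proteins, shortened by deadenylases such as CCR4-NOT, and can carry bases other than A, among them terminal uridines that are read as T in cDNA.

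Replicate 1 held 246316 nuclear transcripts and replicate 2 held 455660. The median tail of all nuclear transcripts was 91 nt in both. Tails of at most 5 nt made up 1.52% of replicate 1 and 2.75% of replicate 2, and mitochondrial transcripts took 18.3% and 9.23% of the assigned reads. The pluripotency markers Pou5f1 and Sox2 had 303 and 85 transcripts. The 6 formative markers had 1096 transcripts, of which 494 were Dnmt3a and 299 Dnmt3b, while Fgf5 had 37. The 8 naïve markers had 589, of which 501 were Zfp42, while Klf4 had 1 and Prdm14 none. The 6 fibroblast, 4 endoderm and 3 mesoderm markers had 4, 1 and 5 transcripts.

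Short tails of the members, short enough to be printed whole, show how non-A bases appear in these data. They were picked for such bases and are not typical. Of all member tails, 11.7% held a non-A base and 3.67% ended in T. The printed tails are whole. They run 5′ to 3′ from the first base after the mRNA body, and capitals mark bases other than A. The first 6 lines are the tails of at most 30 nt with the longest terminal T run of their gene, and the last 3 hold a non-A base inside the tail.
Mcm2 (22 nt): aaaaaaaaaaaaaaaaaaaTTT
Mcm3 (17 nt): aaaaaaaaaaaaaaTTT
Mcm4 (13 nt): aaaaaaaaaaTTT
Mcm5 (18 nt): aaaaaaaaaaaaaaaaTT
Mcm6 (29 nt): aaaaaaaaaaaaaaaaaaaaaaaaaaTTT
Pcna (19 nt): aaaaaaaaaaaaaaaaaTT
Mcm2 (28 nt): aaaaaaaGaaaaaaaaaaaaaaaaaaaa
Mcm3 (19 nt): aaaaaaaaaaaaaaaaTaa
Mcm6 (25 nt): aaaaaaaaaaaCaaaaaaaaaaaaa

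The first comparison asked how alike the 6 subunits of the ring are in tail length. The tail length of a gene (gene tail) is the geometric mean over its transcripts. On pooled transcripts, 5 of the 6 subunits had gene tails between 75.5 and 78.9 nt, and Mcm4 had 64.6 nt. Mcm4 was the lowest subunit in both replicates, and its higher replicate (65.1 nt) lay under the lowest replicate of any other subunit (71.9 nt, Mcm3). That separation was lost among tails of at least 6 nt, where Mcm4 had 66.6 and 72.5 nt and Mcm3 still had 71.9 nt in replicate 1. With 2 values against 2, a two-sided exact permutation test cannot give a p below 0.333, so the differences between subunits are given with their spread and no p.

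Mcm2 (GRCm38 chromosome 6, 88883474 to 88898780, minus strand, 16 exons) encodes the subunit that also carries a histone-binding tail. Its gene tail was 79.3 nt over 207 transcripts in replicate 1 and 76.9 nt over 304 in replicate 2, a mean of 78.1 nt ± 1.71 (SD, n = 2). Its pooled median tail was 92 nt, with a 95% order-statistic interval of 83 to 98 nt. Mcm5 (chromosome 8, 75109569 to 75128439, plus strand, 17 exons) encodes the subunit that meets Mcm2 at the gate through which DNA enters the ring. Its gene tail was 76.0 nt over 206 transcripts and 80.9 nt over 317 (78.5 nt ± 3.40), and its median tail was 94 nt (85 to 102). These partners at the gate differed by less than the spread between the replicates of Mcm5.

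Mcm3 (chromosome 1, 20802968 to 20820312, minus strand, 17 exons) encodes the subunit whose end contacts the origin recognition complex during loading. Its gene tail was 71.9 nt over 146 transcripts in replicate 1 and 78.6 nt over 348 in replicate 2 (75.2 nt ± 4.73), with a median tail of 88.5 nt (81 to 95). The value was thus lower in the shallower replicate, in which 24 of 146 tails were at most 30 nt long, or 16.4%, against 44 of 348, or 12.6%, in the other. The 95% Wilson intervals of these shares, 11.3 to 23.3% and 9.56 to 16.5%, overlapped. The reads carry no molecular identifiers, so these intervals cover counting error only.

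Mcm4, Mcm6 and Mcm7 form the part of the ring that has helicase activity on its own in vitro. Mcm6 (chromosome 1, 128331590 to 128359664, minus strand, 17 exons) was the most deeply read subunit, with gene tails of 74.5 nt over 247 transcripts and 76.0 nt over 619 (75.2 nt ± 1.02) and a median tail of 85 nt (81 to 90). Mcm7 (chromosome 5, 138164583 to 138172422, minus strand, 15 exons) had 88.1 nt over 244 transcripts in replicate 1 and 73.8 nt over 446 in replicate 2 (81.0 nt ± 10.2), with a median tail of 91 nt (86 to 96). It was the longest subunit in replicate 1 and lay between Mcm4 and Mcm6 in replicate 2, the widest spread between replicates of the 6.

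Very short tails moved with this difference of Mcm7. No Mcm7 tail in replicate 1 was 5 nt or shorter, whereas 10 of 446, or 2.24% (1.22 to 4.08%), were so in replicate 2. A count of 0 of 244 leaves an upper Wilson bound of 1.55%. When only tails of at least 6 nt were kept, Mcm7 had 88.1 nt (replicate 1) and 80.2 nt (replicate 2). At the other end, Mcm7 held the longest tail of any member (390 nt), and 21 of 446 tails in replicate 2 were over 200 nt, or 4.71% (3.10 to 7.09%), against 3 of 244, or 1.23% (0.419 to 3.55%), in replicate 1. The 3′ end of Mcm7 lies within the opposite-strand gene Cops6, which overlaps it by 64 nt and had 259 transcripts of its own. Whether the counting used strand is not given in the sources used here, and the part of this overlap in the Mcm7 values was not tested. The other 6 members overlapped no annotated gene.

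Mcm4 (chromosome 16, 15623897 to 15637400, minus strand, 16 exons) had the fewest transcripts of the ring. Its gene tail was 63.2 nt over 80 transcripts and 65.1 nt over 200 (64.2 nt ± 1.34), and the replicates were alike by median too, with 79 nt (replicate 1) and 77 nt (replicate 2). By median, Mcm6 (78 nt) was lower than Mcm4 in replicate 1, and Mcm4 was the lowest subunit in replicate 2. The pooled median of 77.5 nt had an interval of 71 to 84 nt, which did not overlap the intervals of Mcm5 and Mcm7 and did overlap those of Mcm2, Mcm3 and Mcm6. Tails of at most 5 nt made up 6 of 280 Mcm4 transcripts, or 2.14%, the highest share of the members, against 0.202 to 1.45% in the other subunits. Its interval, which starts at 0.986%, overlapped those of all of them. Tails over 90 nt made up 112 of 280 Mcm4 transcripts (a share with an interval of 34.4 to 45.8%), against 46.2 to 51.4% in the other subunits. That interval overlapped those of Mcm3 (44.0 to 52.8%) and Mcm6 (42.9 to 49.5%) and lay below those of Mcm2, Mcm5 and Mcm7. Tails of at most 30 nt made up 11.8% of Mcm4 transcripts, within the 8.41 to 13.8% of the others. Only 1 Mcm4 tail exceeded 200 nt. The Mcm4 reads had a median of 25 passes in each replicate, the lowest of the members, against 35 for all nuclear transcripts, and the part of pass number in the shorter tails was not tested. The Mcm4 gene tail was 61.2 nt among reads with at least 15 passes, 70.7 nt among tails of at least 6 nt and 74.2 nt among tails of at least 15 nt. From 15 nt the next subunit, Mcm6, had 78.5 nt.

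On pooled values the order from longest to shortest was Mcm5, Mcm7, Mcm2, Mcm3, Mcm6, Mcm4 and Pcna. Each neighbouring pair from Mcm5 down to Mcm6 differed by less than the SD between replicates of either gene. The step from Mcm6 to Mcm4 was larger than the SD of both. Pcna in replicate 1 (64.1 nt) fell between the 2 replicates of Mcm4, so these last neighbours were not told apart.

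**Figure D1:**
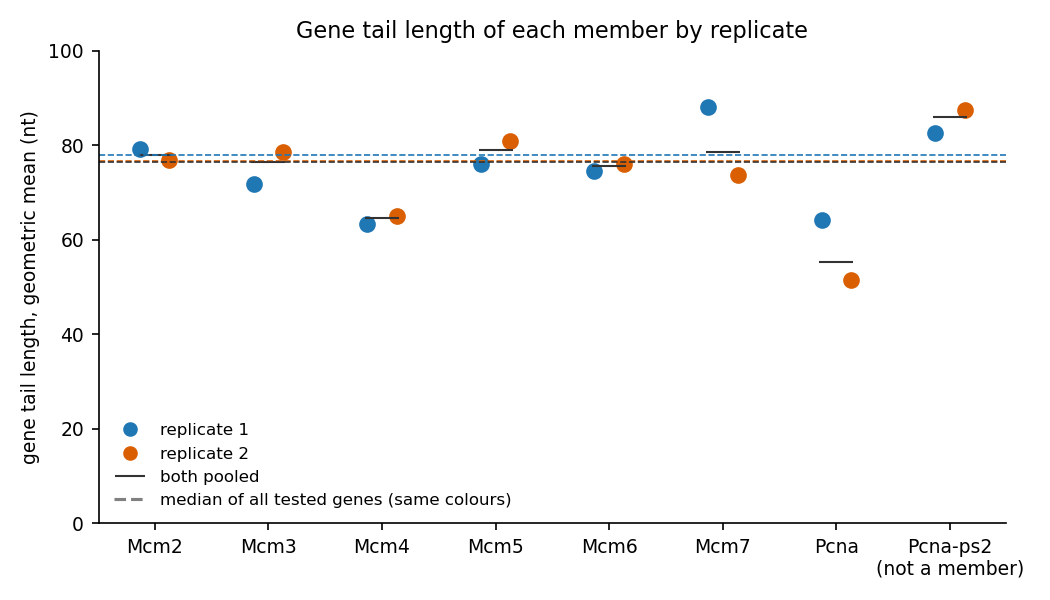
Gene tail length in nt (geometric mean over transcripts) of each member and of the pseudogene Pcna-ps2, with dots for replicates 1 and 2, a bar for both pooled and dashed lines at the median of all genes with at least 10 transcripts. Mcm4 lies at 63.2 and 65.1 nt, below both replicates of every other subunit, and Mcm7 spans 88.1 to 73.8 nt.

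The spread among the subunits was then set beside that of other gene groups. The SD of log2 gene tail among the 6 subunits was 0.110 on pooled transcripts, 0.158 in replicate 1 and 0.109 in replicate 2. The longest pooled gene tail was 1.22 times the shortest. The SD between the 2 replicates of a subunit, as a root mean square over the 6, was 0.0888, and 0.0537 without Mcm7. The SD among the 6 subunits was larger than 0.0888 in both replicates. Without Mcm4, which was set aside after its values were seen, the SD was 0.113 in replicate 1, 0.0499 in replicate 2 and 0.0265 pooled. It then exceeded 0.0888 in replicate 1 only.

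For comparison, the 8 subunits of the chaperonin CCT, a ring that folds actin and tubulin, had a pooled SD of log2 gene tail of 0.119, and the 7 subunits of the proteasome alpha ring had 0.249. Across all 7146 genes the SD was 0.546, and across the 705 genes with at least 200 transcripts it was 0.357. Both of these sets reach down to a gene tail of 1.42 nt, and the part of such genes in their SD was not tested. The MCM2-7 subunits therefore spread about as much as the CCT subunits and less than the proteasome ring or genes at large, as a description of these groups with no test. The proteasome subunits had 988 transcripts in all against 3364 for MCM2-7, and the part of depth in their wider spread was not tested.

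The whole distributions were compared by the largest gap between 2 cumulative curves, which runs from 0 for identical curves to 1 for curves that do not overlap. Over the 15 pairs of subunits, the median gap on pooled transcripts was 0.0732, from 0.0377 for Mcm2 and Mcm7 to 0.140 for Mcm4 and Mcm5. The 5 pairs with Mcm4 had a median of 0.121 and the 10 pairs without it 0.0598. The same order held in replicate 1 (0.144 and 0.117) and in replicate 2 (0.114 and 0.0689). The curves of the 2 replicates of the same member were 0.0700 (Mcm4) to 0.166 (Pcna) apart, with a median of 0.0990. Within a replicate, the median gap between subunits was 0.138 in replicate 1 and 0.0789 in replicate 2, to either side of that value. Such a gap tends to be larger where fewer transcripts are compared. Mcm4, Pcna and replicate 1 had fewer transcripts, and the part of depth in their gaps was not tested.

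**Figure D2:**
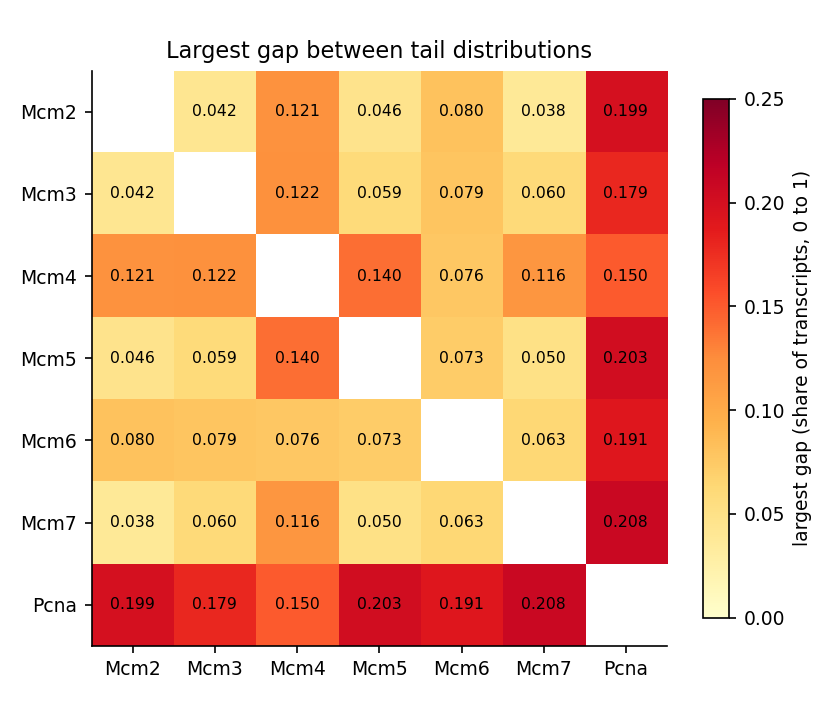
Largest gap between the cumulative tail length curves of each pair of members, both replicates pooled, as a share of transcripts from 0 to 1. Pairs among Mcm2, Mcm3, Mcm5, Mcm6 and Mcm7 reach at most 0.0802, pairs with Mcm4 reach 0.140 and pairs with Pcna run from 0.150 to 0.208.

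Next, the members were placed among all genes. The median gene tail of the 6 subunits was 77.2 nt, against 76.4 nt over the 7146 genes, a difference of 0.81 nt. Within replicates the difference was -2.70 nt in replicate 1, where 4488 genes had at least 10 transcripts, and -0.36 nt in replicate 2, where 5923 had. The subunits thus lay close to the middle of all genes, and the sign of the difference turned between pooled and single replicates. Pooled percentiles among all genes were 48.5 to 56.0 for Mcm2, Mcm3, Mcm5, Mcm6 and Mcm7, 28.2 for Mcm4 and 16.5 for Pcna.

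Of the 7 members, 1 lay above the median of all genes in both replicates (Mcm2), where 35.7% of the 4286 genes that reached 10 transcripts in both replicates separately did so. Below the median in both lay 3 of 7 (Mcm4, Mcm6 and Pcna), where 33.4% of genes did. Mcm2 exceeded the median of replicate 2 by only 0.088 nt, and Mcm6 differed from that median by -0.80 nt. Mcm4 differed from the median by -14.8 nt (replicate 1) and -11.6 nt (replicate 2). Mcm3 and Mcm5 were below the median in replicate 1 and above it in replicate 2, and Mcm7 the other way round.

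**Figure D3:**
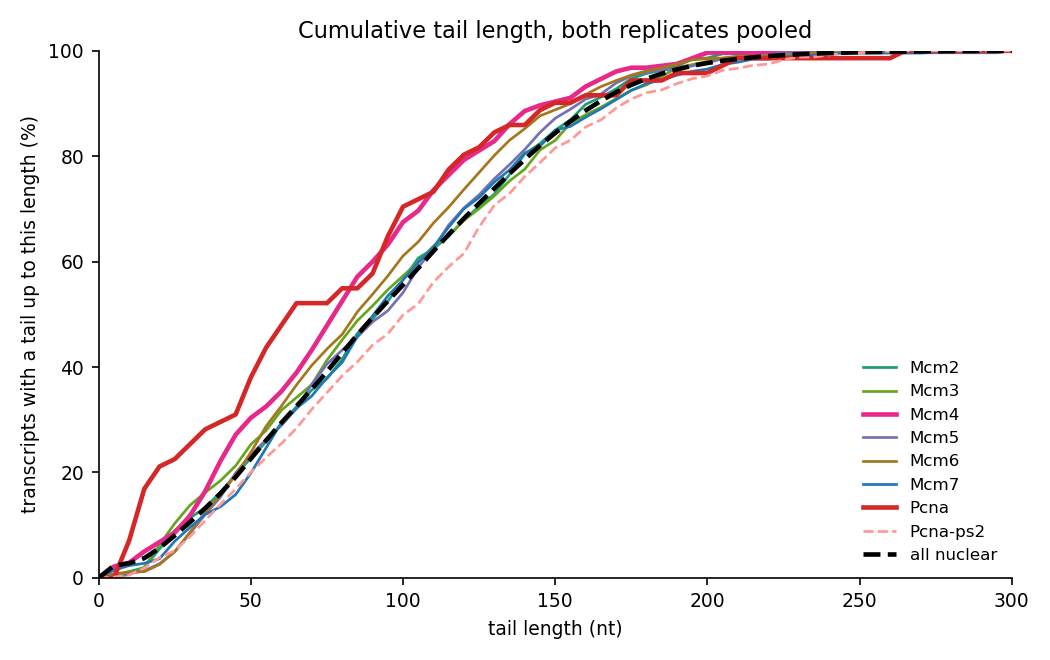
Percent of transcripts with a tail up to each length in nt, both replicates pooled, for the 7 members, Pcna-ps2 and all nuclear transcripts. Mcm2, Mcm3, Mcm5 and Mcm7 follow all nuclear transcripts with gaps of at most 0.0356, Mcm6 and Mcm4 rise above them (gaps of 0.0650 and 0.121) and Pcna rises furthest (0.197).

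Taken as 1 pool, the 3364 tails of Mcm2 to Mcm7 had medians of 86 nt (replicate 1) and 89 nt (replicate 2), slightly under the 91 nt of all nuclear transcripts. Tails over 90 nt made up 47.5% (44.6 to 50.4%) and 48.8% (46.7 to 50.9%) of the pool, against 50.6% of all nuclear transcripts in each replicate. Tails of at most 30 nt made up 9.91% and 10.4%, against 10.1% and 10.8%. Tails of at most 5 nt were rarer in the pool, at 2 of 1130 (0.177%, 0.0486 to 0.643%) and 27 of 2234 (1.21%, 0.832 to 1.75%), below the shares of all nuclear transcripts given above in both replicates. Tails over 200 nt made up 1.99% (1.57 to 2.52%).

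Among 1360 protein-coding genes with at least 100 transcripts, those whose curves lay nearest to the pooled MCM2-7 tails were Trim28 (gap 0.0161), Mak16 (0.0233), Serbp1 (0.0255), Sf3b1 (0.0263) and Hnrnpf (0.0267), while the median gap over the 1360 genes was 0.110. The gaps of these 5 genes ran from 0.0389 to 0.0815 within replicate 1 and from 0.0249 to 0.0384 within replicate 2. These genes had 519 to 2254 transcripts, where 100 were needed, and the part of depth in their small gaps was not tested.

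Pcna was the member with the fewest transcripts, and on pooled transcripts it had the shortest gene tail. In replicate 1 Mcm4 was shorter, at 63.2 nt. Pcna (chromosome 2, 132249162 to 132253314, minus strand, 6 exons) had a gene tail of 64.1 nt over 23 transcripts in replicate 1 and 51.5 nt over 48 in replicate 2 (57.8 nt ± 8.89). Its median tail was 88 nt in replicate 1, with an interval of 49 to 124 nt, and 59.5 nt in replicate 2 (45 to 93). Its curve had many short tails. Tails of at most 30 nt made up 18 of 71 transcripts, or 25.4% (16.7 to 36.6%), against 10.2% (9.25 to 11.3%) of the MCM2-7 pool, and none was 5 nt or shorter. Among tails of at least 15 nt the Pcna gene tail was 76.6 nt, longer than that of Mcm4.

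The low number of Pcna transcripts has to be read with the processed pseudogene Pcna-ps2, an intronless copy of the mRNA on chromosome 19 (9283380 to 9284160, plus strand). Its 781 nt were 99.2% identical to nucleotides 280 to 1060 of the 1518-nt Pcna mRNA. In the GRCm38 genome the likeness ran on past the annotated ends, from mRNA nucleotide 138 to 1394 at 99.3% identity, and stopped 124 nt short of the 3′ end of the mRNA. Reads of Pcna mRNA that end within this stretch could be placed at either locus. Reads that run on to the 3′ end of the mRNA hold bases outside the likeness.

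Pcna-ps2 had 754 transcripts, 10.6 times as many as Pcna, and took 89.8% of the transcripts of the pair in replicate 1 and 92.0% in replicate 2. Its gene tail was 82.6 nt (replicate 1) and 87.4 nt (replicate 2), above the median of all genes in both. The largest gap between its curve and that of Pcna was 0.237. With the reads of both loci together the gene tail was 80.5 nt in replicate 1, 83.7 nt in replicate 2 and 82.8 nt pooled, above the median of all genes where Pcna alone was below it. The length given for Pcna is uncertain for this reason, and how many transcripts of each locus came from Pcna was not tested. The other pseudogene of the clamp, Pcna-ps1, had 0 transcripts. Near-identical copies of Mcm4 (Gm9577, 91.1% over 1861 nt) and Mcm7 (Gm5487, 97.7% over 2157 nt) had 0 transcripts as well, and no other member had such a copy among annotated transcripts.

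Base composition was examined last among the members. A non-A base was present in 13.8% (11.9 to 15.9%) of MCM2-7 tails in replicate 1 and 10.6% (9.40 to 12.0%) in replicate 2. All nuclear transcripts had 12.2% and 9.55%, so the replicates differed in the same direction in both sets. On pooled transcripts T was present in 6.51% of MCM2-7 tails, C in 3.42% and G in 2.79%. Of the 121 tails that ended in T, 85 ended in a single T, 27 in a run of 2 and 9 in a run of 3, the kind printed above for Mcm2, Mcm3, Mcm4 and Mcm6.

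Terminal T was most frequent in short tails. In tails of 6 to 30 nt, 26 of 110 MCM2-7 tails ended in T in replicate 1, or 23.6% (16.7 to 32.4%), and 28 of 205 in replicate 2, or 13.7% (9.62 to 19.0%). In tails over 90 nt the shares were 2.42% (1.42 to 4.10%) and 1.38% (0.836 to 2.26%). The intervals of short and long tails did not overlap in either replicate. All nuclear transcripts showed the same fall, from 18.3% to 2.09% in replicate 1 and from 13.4% to 1.27% in replicate 2, inside the MCM2-7 intervals at both ends.

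**Figure D4:**
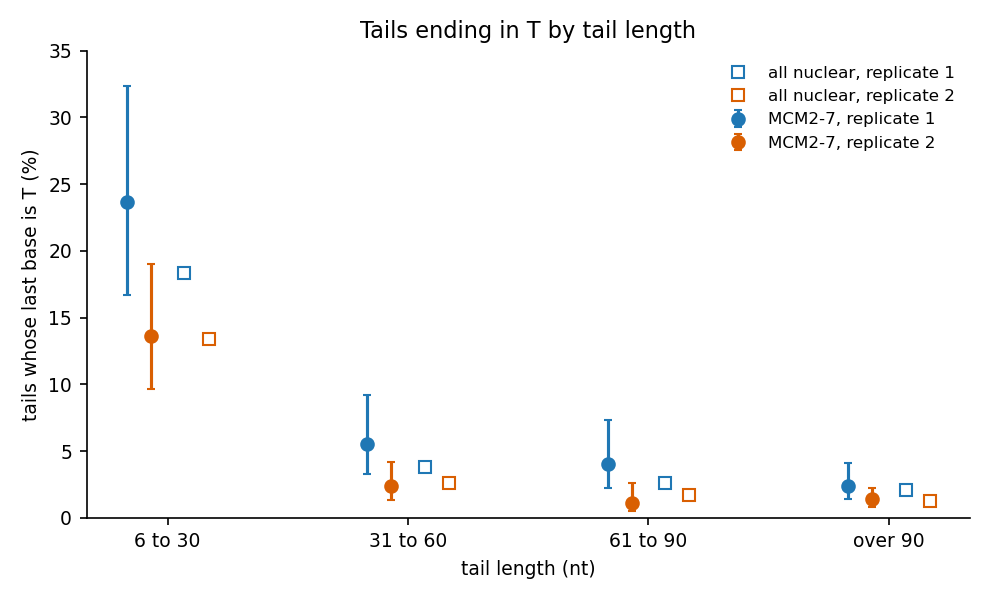
Percent of tails whose last base is T by tail length class in nt, with filled circles and 95% Wilson intervals for MCM2-7 and open squares for all nuclear transcripts, in replicates 1 and 2. MCM2-7 falls from 23.6% and 13.7% in tails of 6 to 30 nt to 2.42% and 1.38% in tails over 90 nt.

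Over tails of any length, 5.49% (4.30 to 6.97%) of the MCM2-7 pool ended in T in replicate 1 and 2.64% (2.05 to 3.39%) in replicate 2. All nuclear transcripts had 3.93% and 2.58%, and 3.06% on pooled transcripts. Among subunits the share of tails ending in T was highest for Mcm4 (6.07%, 3.82 to 9.51%) and Mcm3 (5.67%, 3.95 to 8.07%) and lowest for Mcm7 (1.88%, 1.10 to 3.20%). The intervals of Mcm4 and Mcm3 did not overlap that of Mcm7 on pooled transcripts. In replicate 1 a terminal T was present in 8 of 80 tails of Mcm4, 14 of 146 of Mcm3 (9.59%) and 8 of 244 of Mcm7 (3.28%), and in replicate 2 the shares were 4.50%, 4.02% and 1.12%. Mcm7 was thus lowest of these 3 in both replicates, though within a single replicate its interval overlapped those of Mcm3 and Mcm4. Pcna had a terminal T in 5 of 71 tails, or 7.04% (3.05 to 15.4%), and Pcna-ps2 in 13 of 754, or 1.72% (1.01 to 2.93%).

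The members were finally read beside 68 other replication genes grouped by role, of which 63 had at least 10 transcripts. Their median gene tail was 72.3 nt, a difference of -4.05 nt from all genes on pooled transcripts, -8.92 nt in replicate 1 and -2.91 nt in replicate 2. Of the 57 that reached 10 transcripts in replicate 1 and in replicate 2 alone, 10 (17.5%) lay above the median of all genes in both and 27 (47.4%) below it in both, beside 35.7% and 33.4% of all genes. By median tail in place of the geometric mean, the difference was 0 nt.

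Licensing genes, which include the factors that load the ring onto DNA, had a median of 70.1 nt. Of these, 6 of 10 lay below the median of all genes in both replicates, with none above. DNA polymerases and primase, which copy the unwound strands, had 67.9 nt, with 7 of 10 below and 1 above. Factors that activate the helicase had 71.5 nt, with 4 of 8 below and 2 above. Proteins of the fork had 74.5 nt, with 6 of 12 below and 2 above. Clamp loaders and clamp partners, which place PCNA or work with it, had 77.6 nt, with 3 of 10 below and 4 above. Genes of nucleotide supply had 79.6 nt, with 0 of 6 below and 1 above. Of all genes, 33.4% lay below in both replicates and 35.7% above. The MCM2-7 median of 77.2 nt sat between the higher and lower role medians. Mcm4 and Pcna lay below the median of every role with more than 1 gene. With the reads of Pcna-ps2 counted in, Pcna had 82.8 nt, above each of those medians.

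Of the other genes with MCM in their name, Mcm8, which acts with Mcm9 in recombination, had gene tails of 45.0 nt (replicate 1) and 39.5 nt (replicate 2) over 56 transcripts, shorter than every subunit of the ring. Mcm9 had 2 transcripts, too few for a value. Mcm10, which helps to start the activated helicase, had 71.5 nt over 287 transcripts, and Mcmbp, a binding partner of the MCM proteins, 72.3 nt over 76. Both lay below the median of all genes in each replicate.

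Among the 56 other replication genes with at least 30 transcripts, the shortest gene tails were those of Topbp1, an activator of the helicase and of checkpoint signalling (36.3 nt), Mcm8 (41.5 nt) and Timeless, of the fork protection complex (44.8 nt). The longest were those of Chtf8 (109.7 nt) and Chtf18 (96.6 nt), which belong to the alternative clamp loader, and Pole4, a small subunit of DNA polymerase epsilon (94.5 nt). Topbp1 differed widely between replicates, with 54.5 nt over 15 transcripts and 33.2 nt over 69. Every subunit of the ring lay between these ends.

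**Figure D5:**
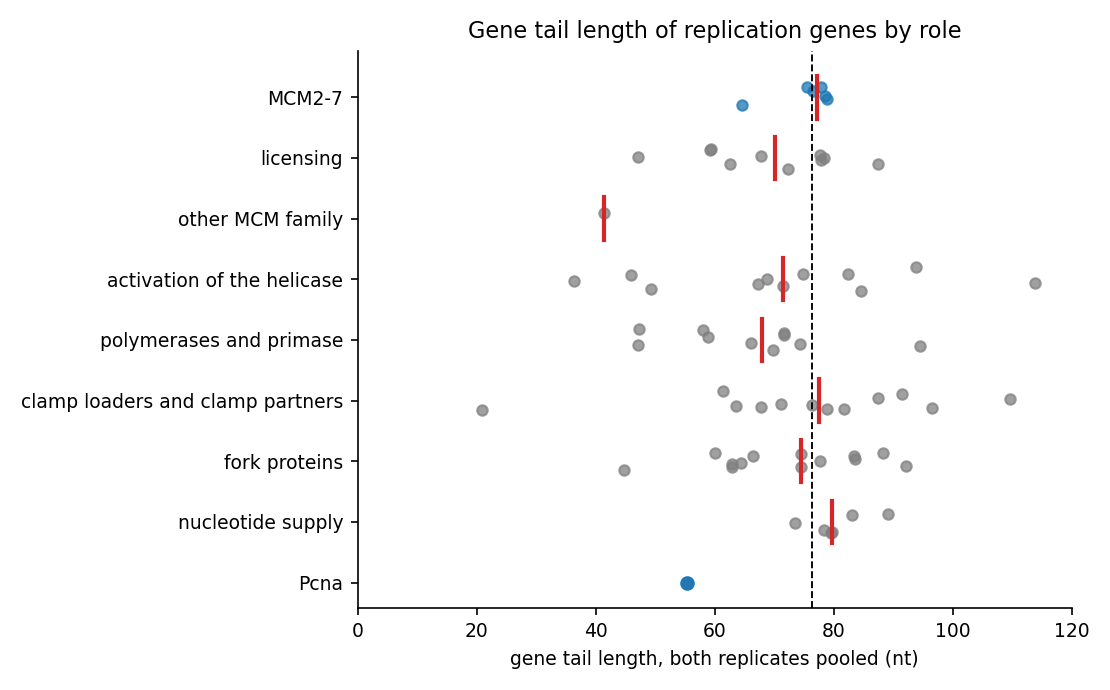
Gene tail length in nt of the MCM2-7 subunits, of Pcna and of 63 other replication genes by role, both replicates pooled, with a dot for each gene, a red bar at the median of each role and a dashed line at the median of all genes (76.4 nt). The subunits of the ring, with 280 to 866 transcripts each, lie within 64.6 to 78.9 nt, and other roles reach from 20.9 to 113.8 nt. Those ends are Atad5 (24 transcripts, 81.3 and 15.9 nt in replicates 1 and 2) and Cdc7 (15 transcripts, 59.2 and 144.2 nt).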

How the data were processed

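The authors made consensus reads from PacBio subreads, mapped them to mm10 with minimap2 (2.17), took the unaligned bases past the 3′ end as the tail and assigned genes with featureCounts (2.0.1). By the paper's methods, sequences with too few A bases at their start and reads without a tail were dropped. Runs of A just upstream were added to the tail where needed. Member tails of 1 nt were still present, and the part of these steps in the shares of very short tails and non-A bases was not tested. The authors' deposited table gives, per read, the barcode, gene, number of passes and counts of A, T, C and G in the tail, with no normalization. Tail length was the sum of these counts. Reads with at least 7 passes were kept, and mitochondrial genes were left out. Genes were placed with GENCODE vM21 (GRCm38), which held 12955 of 12962 identifiers. Reads without a gene (15.2%) stayed out. Copies of member mRNAs were sought with blastn 2.17.0 (at least 90% identity over 300 nt).

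Gene tails are geometric means over at least 10 transcripts. Shares have 95% Wilson intervals and medians exact order-statistic intervals. The smallest share that 3 transcripts can show was 0.00122% in replicate 1 and 0.000658% in replicate 2. Every member was named, with the other MCM-named genes, the 3 longest and 3 shortest of the other replication genes with at least 30 transcripts, and the 5 nearest genes by largest gap. The members and lists were chosen with earlier results of these data known. Alternatives changed the pass filter, the length, the shortest tail, the summary per gene and the genes kept, used only wells that gave 1 read, or left out a replicate. Scripts were tested on simulated tails. The tools were numpy 2.4.6, scipy 1.17.1, pandas 2.3.3 and, for plots, matplotlib 3.10.9 under Python 3.11.15.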

Additional observations from a re-analysis of the deposited data

Results flagged for a closer look

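Transcripts assigned to Pcna-ps2, which is outside the members, numbered 754, where a count of 0 allows up to 3. They were flagged as a signal in rows that the gene symbols of the members leave out. Their gene tail was 86.0 nt pooled, against 55.3 nt for Pcna, and their share of the transcripts of both loci was 91.4%.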

How the results depend on the processing

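Mcm4 was the lowest subunit under each of 11 settings that gave a value for every subunit, with the next subunit 1.06 to 1.22 times as long. The setting by medians used pooled transcripts only. Within replicate 1 the median of Mcm6 (78 nt) was below that of Mcm4 (79 nt). The MCM2-7 median minus that of all genes was above 0 in 8 of 13 settings and below in 5, from -2.85 to 1.71 nt. It was -2.84 nt for tails of at least 6 nt, -2.85 nt for tails of at least 15 nt and -1.82 nt for genes that reached 30 transcripts in replicates 1 and 2 alike. The median subunit, 77.2 nt as reported, was 78.2 nt with at least 15 passes, 78.3 nt from 6 nt, 80.3 nt from 15 nt, 89.8 nt by medians and 94.2 nt by arithmetic means. The SD of log2 among subunits was 0.147 with at least 15 passes and 0.0688 from 15 nt. The share of tails over 90 nt was 49.3% from 15 nt. Pcna was 76.6 nt from 15 nt, 65.0 nt by its median, 77.9 nt by its arithmetic mean, and, as alternatives chosen after seeing the data, 82.8 nt with Pcna-ps2 and 86.0 nt for Pcna-ps2 alone. No member lay above the median of all genes in both replicates (0 against 1) with at least 15 passes, from 6 nt, from 15 nt, with single-read wells or from 30 transcripts per replicate. Non-A bases fell to 7.98% of member tails, from 11.7%, without the first and last base. The causes of these shifts were not tested.

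Leaving out either replicate gave 75.3 to 76.4 nt for the median subunit, -2.70 to -0.36 nt for its difference from all genes, 0.109 to 0.158 for the SD, 51.5 to 64.1 nt for Pcna, -8.92 to -2.91 nt for the other replication genes, 47.5 to 48.8% for tails over 90 nt and 10.7 to 13.7% for non-A bases. Pcna rests on 23 and 48 transcripts. No paired analysis was possible because there is a single group.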
